A study of Mus musculus with 8 samples.

Results

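The 5 genes described here carry ketone bodies into cells and turn them into acetyl-CoA or activated acetoacetate: Slc16a1, Bdh1, Oxct1, Acat1 and Aacs. They were chosen by name, and all 5 were found among the 18395 genes of the count table. Their mRNA was measured in adipose tissue in 8 RNA-seq libraries. The KO group (n = 4) came from mice whose brown adipocytes lacked Kindlin-2, the integrin-binding adhesion protein encoded by Fermt2, and the WT group (n = 4) came from control mice. Mice of both groups had spent 6 hours at 4 °C. The labels give neither the fat depot, the promoter that drives the deletion, the strain nor the age. They also do not say whether each library was a separate animal, so each p-value weighs only the scatter among these samples, which may be technical.

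Ketone bodies are made by the liver from fatty acids and are burned by other tissues when glucose is scarce. Slc16a1 encodes the monocarboxylate transporter MCT1, which moves lactate, pyruvate, beta-hydroxybutyrate and acetoacetate across the plasma membrane. In mitochondria, Bdh1 (beta-hydroxybutyrate dehydrogenase) oxidises beta-hydroxybutyrate to acetoacetate, Oxct1 (succinyl-CoA:3-oxoacid CoA transferase, SCOT) attaches CoA to acetoacetate and Acat1 (acetoacetyl-CoA thiolase) splits acetoacetyl-CoA into acetyl-CoA. Acat1 also acts in isoleucine breakdown. Aacs (acetoacetyl-CoA synthetase) activates acetoacetate in the cytosol, where it can feed fatty acid and sterol synthesis.

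The stretches of 250 bases upstream of the annotated starts of Oxct1 and Slc16a1 are shown because these genes, an intracellular enzyme and the transporter that feeds it, both lay lower on average in KO tissue while their promoters differ. They are RefSeq sequences on GRCm38.p6, plus strand, at chr15:4026178-4026427 for Oxct1 and chr3:104638414-104638663 for Slc16a1. Capitals mark a motif match.
Oxct1: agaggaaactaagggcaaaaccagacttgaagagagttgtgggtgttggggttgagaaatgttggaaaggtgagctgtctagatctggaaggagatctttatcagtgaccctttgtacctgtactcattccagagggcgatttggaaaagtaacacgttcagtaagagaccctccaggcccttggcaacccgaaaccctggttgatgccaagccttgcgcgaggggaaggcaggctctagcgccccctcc
Slc16a1: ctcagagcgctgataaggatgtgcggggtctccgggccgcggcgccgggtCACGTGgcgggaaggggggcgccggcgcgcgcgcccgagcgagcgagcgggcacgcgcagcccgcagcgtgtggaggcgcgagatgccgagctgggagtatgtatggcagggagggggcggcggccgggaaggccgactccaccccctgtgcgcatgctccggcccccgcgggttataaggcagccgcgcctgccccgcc

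The capitals in the Slc16a1 sequence are an E-box (CACGTG), which starts 200 bases before the start site. An E-box was held by 6.02% of the 32851 promoter stretches of this length. Both strands were searched, also for TCAAGGTCA (oestrogen-related receptor element), GGTCAAAGG (core of the PPAR direct repeat), TGACGTCA (cyclic AMP response element) and GCGCATGCG (NRF1), which were held by 0.387%, 0.31%, 1.55% and 1.45% of promoters. Sequences were matched for 4 of the 5 genes. None of these 5 motifs matched upstream of Oxct1, Aacs or either listed start of Bdh1. The Slc16a1 stretch was 76.4% G and C, against 52.0% for Oxct1 and a median of 52.4% over all promoters. A match is a string of letters and was not tested as a binding site.

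Depth was similar in both groups, with 35734373 to 40927141 counts in KO libraries and 33672272 to 43253559 in WT libraries. Levels are given as CPM, counts per 1000000 counts of the library, with library sizes corrected for composition by edgeR's TMM factors. Fermt2, the targeted gene, had 192, 132, 173 and 174 CPM in KO replicates 1 to 4, against 239, 235, 244 and 201 CPM in WT replicates 1 to 4, a log2 fold change of -0.45 ± 0.14 (SE) with an edgeR adjusted p of 0.134. Every KO library lay below every WT library, as in 7.56% of all genes tested. All 12 brown adipocyte markers and all 10 general adipocyte markers passed the filter on low counts. WT replicate 3 stood apart by its skeletal muscle transcripts, with 14 markers summing to 42452 CPM against at most 275 CPM in any other library. KO replicate 2 stood apart by its immune transcripts, with 12 interferon response genes summing to 5221 CPM against at most 473 CPM elsewhere, and T and NK cell markers at 217 CPM against at most 43.3 CPM. Values without both of these libraries are called the 6-library comparison.

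The question asked of these genes was whether their mRNA differed between KO and WT tissue after cold. Acat1 had the smallest p of the 5 genes: its mean level in KO tissue was 0.626 times that of WT, and every KO library lay below every WT library. Oxct1 (0.765 times) and Slc16a1 (0.686 times) had lower means with overlapping groups. Aacs was high in 1 KO library and inside the WT range in the other 3, and Bdh1 was below 2 CPM in 7 of 8 libraries. The quasi-likelihood test of edgeR, with a threshold of 0.05 on the Benjamini-Hochberg adjusted p, called 0 of the 5 genes, as it called 0% of the 13901 genes tested. At an unadjusted p under 0.05 it counted 2 of the 5 genes, Acat1 and Oxct1, both lower in KO, against 1543 of all genes lower (11.1%) and 2993 in either direction (21.5%). DESeq2 and limma-voom with sample quality weights each called 1 of the 5, Acat1, as lower in KO, while they called 8.71% and 6.55% of all genes in either direction, and 4.71% and 3.62% as lower. The TMM factors were 1.05 to 1.15 in KO libraries and 0.879 to 0.948 in WT libraries. Scaling by total counts alone, without TMM, moved the median log2 fold change of all genes to 0.264. The values were then -0.42 for Acat1, -0.13 for Oxct1, -0.30 for Slc16a1, -1.48 for Bdh1 and 0.65 for Aacs. Relative to that median they were -0.69 for Acat1, -0.39 for Oxct1, -0.56 for Slc16a1, -1.75 for Bdh1 and 0.38 for Aacs. Each of the 7 pathway lists and both adipocyte marker lists had as many genes under that median as genes lower in KO with TMM. Taking off the median largely reverses a shift shared by all genes, so this likeness to the TMM values was built in.

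**Figure D1:**
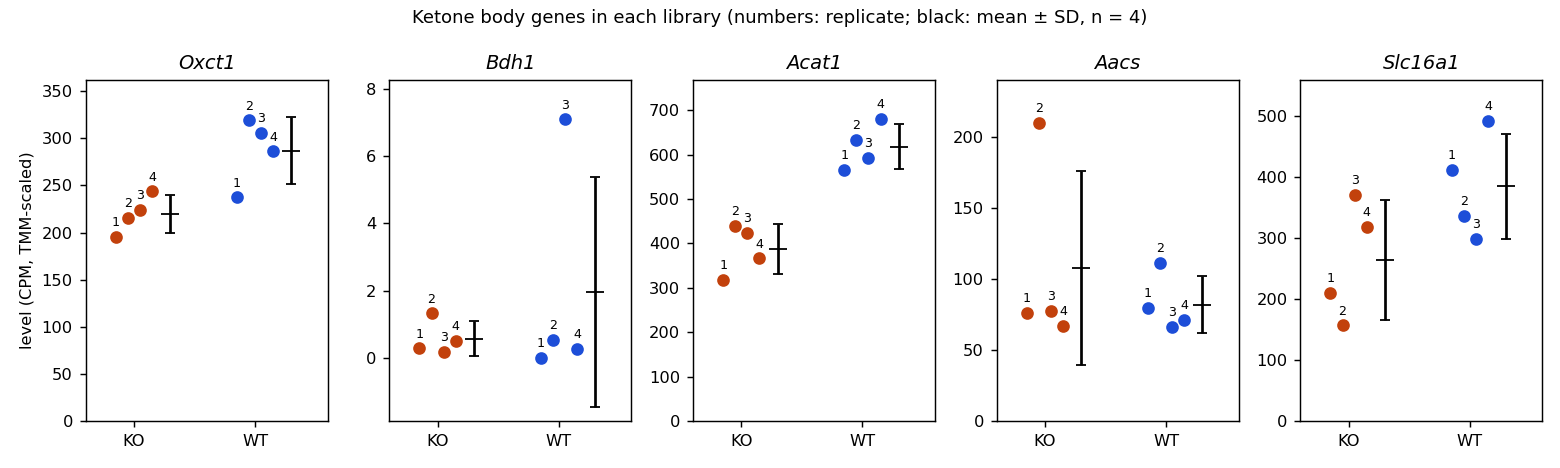
Level of the 5 genes (CPM, TMM-scaled) in each KO and WT library, with the replicate number above each point and the mean ± SD (n = 4) in black; each panel has its own axis. Acat1 shows no overlap between KO (318 to 439.9 CPM) and WT (566 to 680.4 CPM), while the Bdh1 and Aacs means each rest on 1 high library.

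The thiolase Acat1 (ENSMUSG00000032047, chromosome 9) had 318, 439.9, 424 and 366 CPM in KO replicates 1 to 4, against 566, 634, 592 and 680.4 CPM in WT replicates 1 to 4. The highest KO library thus lay well under the lowest WT library. Such a complete separation with KO below WT was seen in 1051 of 13901 genes (7.56%), the opposite separation in 5.8% and either in 13.4%. Acat1 averaged 387 ± 55.8 CPM in KO and 618 ± 50.1 CPM in WT (SD, n = 4 each), a log2 fold change of -0.68 ± 0.13 (SE). Its edgeR p was 0.000624, which ranked 93 among the 13901 genes, and its adjusted p was 0.0929, short of the threshold. In the 6-library comparison Acat1 was called lower (-0.76 ± 0.15, edgeR adjusted p = 0.0361), where 3.32% of genes were called and 208 genes (1.5%) were called lower. Leaving out KO replicate 2 alone also gave a call (-0.74, edgeR adjusted p = 0.0368), with 2.57% of genes called and 0.877% called lower, and the other leave-outs of 1 library gave none. DESeq2 gave Acat1 an adjusted p of 0.000615 and limma-voom with quality weights one of 0.0227.

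The CoA transferase Oxct1 (ENSMUSG00000022186, chromosome 15), the step that commits acetoacetate to oxidation, had 196, 216, 224 and 244 CPM in KO replicates 1 to 4. In WT replicates 1 to 4 it had 237, 319, 306 and 286 CPM. KO replicates 1 to 3 lay below all WT libraries, and KO replicate 4 lay just above WT replicate 1, the lowest of its group. The means were 219.7 ± 20.0 CPM in KO and 287 ± 35.9 CPM in WT (SD, n = 4 each), a log2 fold change of -0.39 ± 0.13 with an edgeR adjusted p of 0.155. It was -0.34 ± 0.15 in the 6-library comparison (edgeR adjusted p = 0.202). DESeq2 and limma-voom with quality weights gave adjusted p values of 0.0605 and 0.0931. A gene on the opposite strand, BC037032, overlaps Oxct1 and is also in the table, and the strand setting of the counting is not given in the sources used here.

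Bdh1 (ENSMUSG00000046598, chromosome 16), the mitochondrial dehydrogenase for beta-hydroxybutyrate, was barely counted. It had 12, 59, 6 and 20 reads in KO replicates 1 to 4, or 0.277, 1.32, 0.160 and 0.493 CPM. In WT replicates 1 to 4 it had 0, 17, 212 and 10 reads, or 0, 0.533, 7.10 and 0.251 CPM. A count of 0 in WT replicate 1 allows up to 3 counts, or 0.0900 CPM, for counting error only. The 2 libraries with the most Bdh1 reads were the pair that stood apart. In WT replicate 3, all 14 of the 14 skeletal muscle markers had their highest level, and the muscle list summed to between 9.86 and 265 CPM in KO and between 5.04 and 275 CPM in the other WT libraries. None of the 14 was at 0 in all libraries. The log2 fold change of Bdh1 was -1.79 ± 1.43 with all libraries and 1.11 without WT replicate 3, with edgeR adjusted p values of 0.480 and 0.586. With few reads and this scatter between libraries, no difference in Bdh1 was detectable. The part of muscle RNA in the Bdh1 reads was not tested.

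For cytosolic acetoacetate activation, only the mRNA of the enzyme gene Aacs (ENSMUSG00000029482, chromosome 5) was measured. KO replicates 1 to 4 had 75.9, 210.3, 77.5 and 67.2 CPM, and WT replicates 1 to 4 had 79.5, 111, 66.0 and 71.2 CPM. KO replicate 2 alone lay above the WT range, and the other 3 KO libraries lay inside it. Aacs averaged 108 ± 68.5 CPM in KO and 82.0 ± 20.3 CPM in WT (SD, n = 4 each), a log2 fold change of 0.39 ± 0.38 (edgeR adjusted p = 0.563). Without KO replicate 2 it was -0.16 (edgeR adjusted p = 0.633), and in the 6-library comparison -0.25 ± 0.17 (edgeR adjusted p = 0.415), so the direction rests on that library. Beside it, KO replicate 2 held the highest level of all 12 interferon response genes and of all 10 T and NK cell markers, whose sums were 324 to 5221 and 20.7 to 217 CPM in KO and 234 to 473 and 3.69 to 36.3 CPM in WT. None of these genes was at 0 in all libraries, and their part in the Aacs level was not tested.

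The transporter Slc16a1 (ENSMUSG00000032902, chromosome 3) split the KO group. KO replicates 1 and 2 had 209.7 and 156 CPM and KO replicates 3 and 4 had 370.1 and 317 CPM, against 411, 335, 298 and 491 CPM in WT replicates 1 to 4. The first 2 KO libraries lay below every WT library and the other 2 lay among them. The mean was 263 ± 97.7 CPM in KO and 384 ± 85.4 CPM in WT (SD, n = 4 each), a log2 fold change of -0.54 ± 0.27 with an edgeR adjusted p of 0.273. Over the 6 libraries it was -0.46 ± 0.22 (edgeR adjusted p = 0.245). The value was -0.36 without KO replicate 2 and -0.76 without KO replicate 3, with adjusted p values of 0.373 and 0.198 in edgeR.

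Levels were compared between the genes per kilobase of exon, with lengths from GENCODE M21. In KO tissue Acat1 had 103 ± 14.8 CPM per kilobase, Slc16a1 59.5 ± 22.1, Oxct1 59.4 ± 5.39, Aacs 27.9 ± 17.8 and Bdh1 0.145 ± 0.134 CPM per kilobase (SD, n = 4). In WT tissue Acat1 had 164 ± 13.3 CPM per kilobase, Slc16a1 86.7 ± 19.3, Oxct1 77.6 ± 9.69, Aacs 21.3 ± 5.28 and Bdh1 0.507 ± 0.881. The order was the same in both groups, with Slc16a1 and Oxct1 as neighbours whose levels did not differ beyond their spread. Acat1 thus stood highest and Bdh1 lowest per length in either group.

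Ratios between the genes within a library do not move with scaling. Of the 10 pairs, the log2 ratio of Acat1 to Aacs was lower in KO, at 2.07, 1.06, 2.45 and 2.45 in KO replicates 1 to 4 and 2.83, 2.51, 3.16 and 3.26 in WT replicates 1 to 4. The groups did not overlap, with a difference of -0.93 and an exact permutation p of 0.0286, two-sided, the smallest that 4 against 4 can give. Adjusted over the 10 pairs by Benjamini-Hochberg, that p was 0.286. Without KO replicate 2, the library high in Aacs, the difference was -0.62 (exact permutation p adjusted over the 10 pairs = 0.286). The log2 ratio of Oxct1 to Acat1 was higher in KO by 0.30 (-0.81 ± 0.20 in KO and -1.11 ± 0.16 in WT, SD, n = 4 each), with 3 of 4 KO libraries above all WT libraries (exact permutation p = 0.114, adjusted 0.571). No pair passed the adjusted threshold, which 1 pair alone cannot do even at the smallest possible p, as Acat1 to Aacs shows. The 4 pairs with Bdh1 had adjusted p values between 0.921 and 0.971 in the same exact test.

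Of the cell type markers, edgeR called 0 in each of the general adipocyte, brown adipocyte and endothelial lists, with 4, 6 and 9 markers of these lists at an unadjusted p under 0.05. DESeq2 called 3, 4 and 7 of them, limma-voom with quality weights 3, 2 and 8, and edgeR in the 6-library comparison 1, 2 and 6. Over all genes, 21.5% had an unadjusted edgeR p under 0.05. DESeq2 called 8.71% of all genes, limma-voom 6.55% and edgeR in the 6-library comparison 3.32%. Of 10 general adipocyte markers, 8 lay lower in KO (median log2 fold change -0.35, and 6 when scaled by total counts). Their summed level was 19548 to 25753 CPM in KO and 24500 to 28308 CPM in WT, which overlap through WT replicate 3 alone. WT replicates 1, 2 and 4 had 26665.5, 28308 and 27843 CPM, above every KO library. All 12 brown adipocyte markers lay lower (median -0.74, and 7 when scaled by total counts), with sums of 8423 to 11443 CPM in KO and 13996 to 15687 CPM in WT. In the 6-library comparison 7 general and 11 brown adipocyte markers lay lower, with medians of -0.19 and -0.60. Of 12 endothelial markers, 11 lay higher (median 0.67). Their sums were 2044 to 3576 CPM in KO and 1670.3 to 2232 CPM in WT, which overlap through KO replicate 2 alone. KO replicates 1, 3 and 4 had 3576, 2712 and 3489 CPM, above every WT library. In the 6-library comparison all 12 endothelial markers lay higher, with a median of 0.71. In whole tissue, fewer cells of a type and less RNA per cell cannot be told apart. No marker of these 3 lists was at 0 in all libraries, and the part of a changed cell mix in the levels of the 5 genes was not tested.

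Set against the mean log2 level of the 10 general adipocyte markers in the same library, Acat1 was at -1.69, -1.10, -1.55 and -1.50 in KO replicates 1 to 4 and at -1.14, -1.05, -1.09 and -1.01 in WT replicates 1 to 4 on the log2 scale. KO replicate 2 lay inside the WT range and the other 3 KO libraries lay below it. The means differed by -0.39 (exact permutation p = 0.0571, two-sided, adjusted 0.286 over the 5 genes). On the same scale Oxct1 averaged -2.27 ± 0.19 in KO and -2.18 ± 0.18 in WT (SD, n = 4 each), a difference of -0.09 (exact permutation p = 0.514, adjusted 0.643). For Slc16a1 and Aacs the differences were -0.30 and 0.54 (exact permutation p = 0.314 and 0.286, adjusted 0.524 for both).

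**Figure D2:**
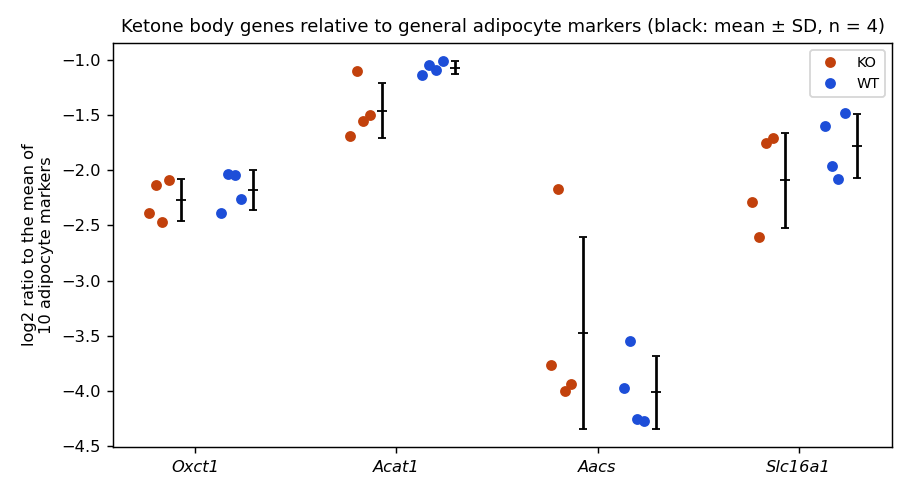
Log2 ratio of 4 genes to the mean log2 level of 10 general adipocyte markers within each library, KO left of WT, with the mean ± SD (n = 4) in black; Bdh1 is left out because it was barely counted. For Acat1, 3 of 4 KO libraries lie below all WT libraries, while the Oxct1 groups overlap.

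The genes with the most similar library profile were found by the root mean square difference of centred log2 CPM over the 8 libraries, among 4795 other genes (4796 for Bdh1). For Acat1 they were Ndufs1, a complex I subunit, Hibadh, an enzyme of valine breakdown, and Apoo, a protein of mitochondrial inner membrane organisation, at 0.0696, 0.0740 and 0.0757 on the log2 scale. The median over all these genes was 0.392 for Acat1. For Oxct1 they included Chchd1, a mitochondrial ribosomal protein, at 0.0698 and Ube2e3, a ubiquitin-conjugating enzyme, at 0.0862, with a median of 0.290. For Slc16a1 they were Agpat2, an acyltransferase of triglyceride synthesis, at 0.115, Slc25a17, a peroxisomal carrier, at 0.153 and Akirin1 at 0.162, with a median of 0.509. For Aacs they were Psme1, an interferon-inducible proteasome activator subunit, at 0.155, Tspan4 at 0.174 and Erap1, a peptidase of antigen processing, at 0.195, with a median of 0.590. For Bdh1 the closest, Tacc2, Bin1 and Tpm1, stood at 1.27, 1.27 and 1.31, with a median of 1.96. These values describe likeness over libraries that share their group difference. The Aacs profile was set largely by KO replicate 2, at 1.26 above the Aacs mean on the log2 scale. The other libraries lay between -0.41 and 0.35. The Bdh1 profile was highest in WT replicate 3, at 3.85 on that scale.

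Of the genes listed for ketone body synthesis, Bdh2, a cytosolic dehydrogenase, stayed under 1 CPM in all 8 libraries, with a mean of 0.321 CPM in KO and 0.313 CPM in WT and a log2 fold change of 0.06 ± 0.59 (edgeR adjusted p = 0.960).

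Among other thiolases and CoA transferases, 7 of 9 listed genes were tested, of which 6 lay lower, 1 higher and 0 were called (median log2 fold change -0.39, and -0.50 in the 6-library comparison, against 0.00362 over all genes with the 8 libraries). Scp2, which carries a peroxisomal thiolase and a sterol carrier domain, had 620.0, 605, 725 and 651 CPM in KO replicates 1 to 4 and 849.7, 1002, 887 and 1016 CPM in WT replicates 1 to 4. Its KO values all lay under its WT values, as in 7.56% of all genes tested. The log2 fold change of Scp2 was -0.53 ± 0.12 (edgeR adjusted p = 0.0981). Hadhb, the thiolase subunit of the mitochondrial trifunctional protein, had 1250.0 to 1615 CPM in KO and 1586 to 2342 CPM in WT, at -0.51 ± 0.16 (edgeR adjusted p = 0.142). In the 6-library comparison Hadhb was the member of this list that was called (-0.67 ± 0.15, edgeR adjusted p = 0.0447). Acaa2, the mitochondrial 3-ketoacyl-CoA thiolase with the highest level of the list, averaged 1866 ± 281 CPM in KO and 2409 ± 502 CPM in WT (SD, n = 4 each), at -0.37 ± 0.18 (edgeR adjusted p = 0.264). Acat2, the cytosolic counterpart of Acat1, differed by -0.39 ± 0.15 (edgeR adjusted p = 0.196), and Acaa1b, a peroxisomal thiolase, by -0.65 ± 0.22 (edgeR adjusted p = 0.155). Acat2 and Acaa1b have near-identical copies, Acat3 and Acaa1a, between which reads may have been split.

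**Figure D3:**
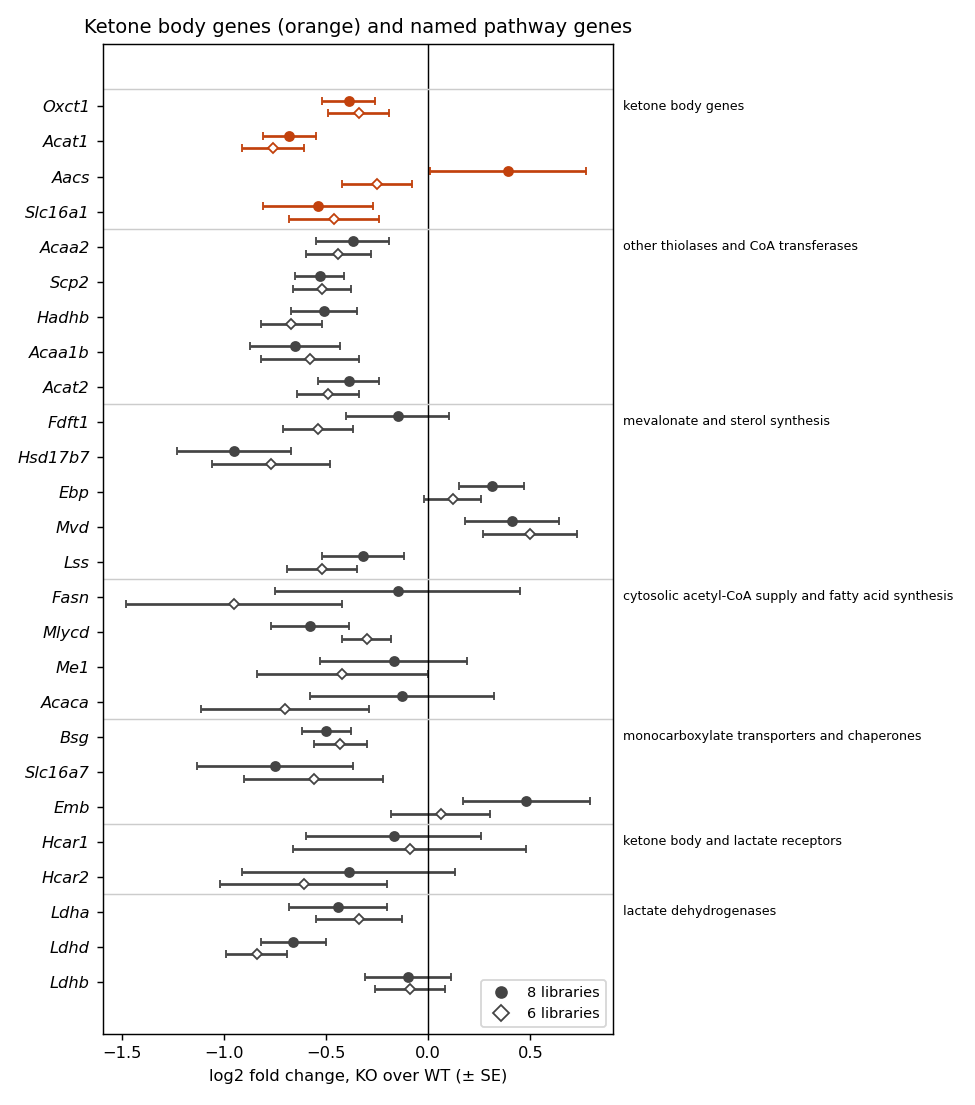
Log2 fold change, KO over WT (± SE), of 4 of the ketone body genes in orange and of named pathway genes in black, with all 8 libraries as filled circles and the 6-library comparison as open diamonds; Bdh1, Bdh2, Slc16a3 and Ffar2 are left out for low counts or values set by 1 library. Acat1 lies at -0.68 and -0.76, and Aacs changes side, at 0.39 and -0.25.

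Downstream of cytosolic acetoacetyl-CoA, all 19 listed genes of mevalonate and sterol synthesis were tested, of which 14 lay lower, 5 higher and 0 were called (median -0.09, and -0.20 in the 6-library comparison), while 14 lay higher when scaled by total counts. Fdft1 (squalene synthase), the most abundant, had 189.6 to 373 CPM in KO and 205 to 358 CPM in WT, at -0.15 ± 0.25 over the 8 libraries and -0.54 ± 0.17 over the 6 (edgeR adjusted p = 0.745 and 0.0995). Hsd17b7, an enzyme of late sterol synthesis, had 1.996 to 3.02 CPM in KO and 3.601 to 7.23 CPM in WT, at -0.95 ± 0.28 (edgeR adjusted p = 0.134). Mvd, Ebp and Lss, further enzymes of the route, differed by 0.41 ± 0.23, 0.31 ± 0.16 and -0.32 ± 0.20, with edgeR adjusted p values between 0.277 and 0.351. In the 6-library comparison Mvd, Ebp and Lss differed by 0.50 ± 0.23, 0.12 ± 0.14 and -0.52 ± 0.17.

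In the list of cytosolic acetyl-CoA supply and fatty acid synthesis, all 8 genes were tested, of which 7 lay lower, 1 higher and 0 were called (median -0.08, and -0.51 in the 6-library comparison), while 7 lay higher when scaled by total counts. The library with the highest Aacs level was also the highest for 7 of these 8 genes, and KO replicate 1 was the lowest for 6. Fasn (fatty acid synthase) had 657, 6456, 3172 and 2322 CPM in KO replicates 1 to 4 and 3866, 3289, 2045 and 4754 CPM in WT replicates 1 to 4. The KO libraries thus spread on both sides of the WT range, and the log2 fold change was -0.15 ± 0.60 over the 8 libraries and -0.95 ± 0.53 over the 6 (edgeR adjusted p = 0.905 and 0.334). Acaca (acetyl-CoA carboxylase 1) and Me1 (malic enzyme 1) differed by -0.13 ± 0.45 and -0.17 ± 0.36. Mlycd, which breaks down malonyl-CoA, was lowest in KO replicate 2, at 97.8 CPM, and highest in WT replicate 3, at 246 CPM. It differed by -0.58 ± 0.19 (edgeR adjusted p = 0.149), with every KO value under every WT value, as in 7.56% of all genes tested. In the 6-library comparison it differed by -0.30 ± 0.12 (edgeR adjusted p = 0.181). In KO replicate 1, where Fasn was lowest, Aacs was at 75.9 CPM, inside the WT range.

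**Figure D4:**
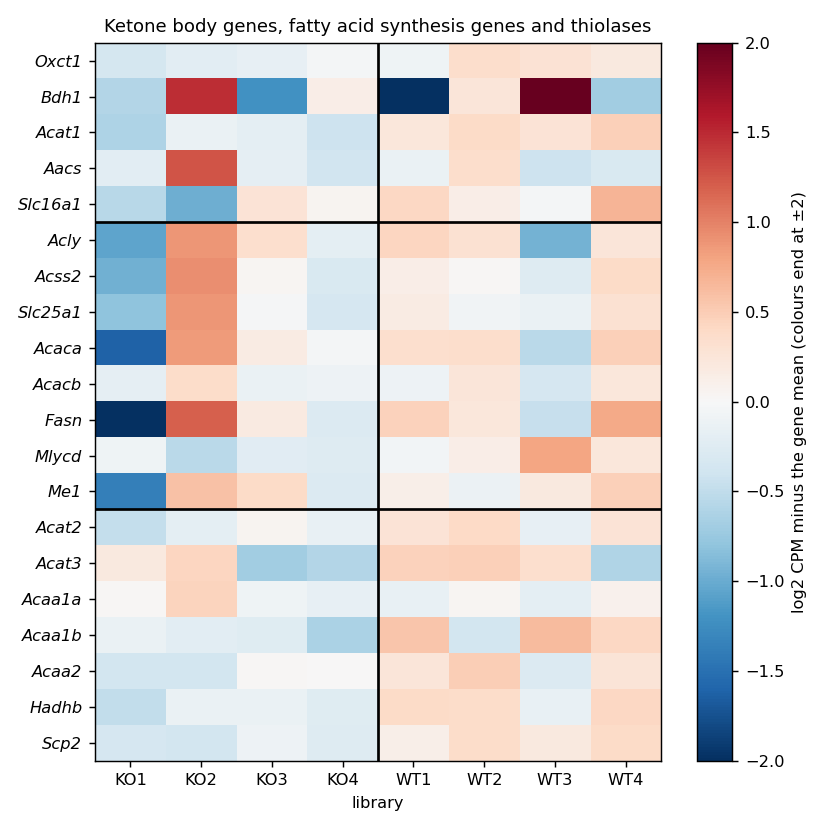
Log2 CPM of each gene minus its own mean over the 8 libraries, for the ketone body genes (top), cytosolic acetyl-CoA supply and fatty acid synthesis (middle) and thiolases (bottom), with KO libraries left of the line and WT libraries right of it. Aacs and most fatty acid synthesis genes are high in KO2, and Acat1 is lower in all 4 KO libraries than in all 4 WT libraries.

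The list of monocarboxylate transporters and chaperones had 9 of 11 genes tested, of which 6 lay lower, 3 higher and 0 were called (median -0.50). Bsg (basigin), the membrane chaperone that MCT1 needs to reach the cell surface, had 547, 571, 639 and 593 CPM in KO replicates 1 to 4 and 722, 862, 928 and 809 CPM in WT replicates 1 to 4. Every KO library lay below every WT library, as in 7.56% of all genes tested. The log2 fold change of Bsg was -0.50 ± 0.12 (edgeR adjusted p = 0.103, DESeq2 adjusted p = 0.00344). In the 6-library comparison it was -0.43 ± 0.13 (edgeR adjusted p = 0.101). Slc16a7 (MCT2) averaged 6.00 ± 3.03 CPM in KO and 10.1 ± 3.02 CPM in WT (SD, n = 4 each), at -0.75 ± 0.38 (edgeR adjusted p = 0.274). Slc16a3 (MCT4), the lactate exporter of glycolytic muscle, reached 79.0 CPM in WT replicate 3 and at most 3.24 CPM elsewhere, so its log2 fold change was -3.33 ± 1.42 over the 8 libraries and -0.40 ± 0.34 over the 6. Emb (embigin), another chaperone, differed by 0.48 ± 0.31 (edgeR adjusted p = 0.367). It had 9.56 CPM in KO replicate 2 and 3.78 to 5.32 CPM in the other KO libraries. In the 6-library comparison it differed by 0.06 ± 0.24 (edgeR adjusted p = 0.911).

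The receptors for ketone bodies and lactate were low, and 3 of 4 listed genes were tested, all 3 lower in KO and 0 called (median -0.39), while Hcar1 lay higher when scaled by total counts. Hcar1, the lactate receptor of adipocytes, had 3.76 to 16.9 CPM in KO and 7.14 to 17.4 CPM in WT, at -0.17 ± 0.43. Hcar2, the receptor for beta-hydroxybutyrate, had 1.36 to 6.99 CPM in KO and 2.35 to 7.63 CPM in WT, at -0.39 ± 0.52. Ffar2 differed by -1.85 ± 0.72 with all libraries (edgeR adjusted p = 0.197) and by -0.85 ± 0.60 in the 6-library comparison, with its highest level, 11.5 CPM, in WT replicate 3.

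All 3 lactate dehydrogenases, whose substrates MCT1 also carries, lay lower in KO and 0 were called (median -0.44), while Ldhb lay higher when scaled by total counts. Ldhd, the mitochondrial dehydrogenase for D-lactate, had 71.9, 77.9, 56.0 and 53.6 CPM in KO replicates 1 to 4 and 103, 97.8, 84.6 and 123 CPM in WT replicates 1 to 4. The groups did not overlap, and its log2 fold change was -0.66 ± 0.16 (edgeR adjusted p = 0.104), and -0.84 ± 0.15 in the 6-library comparison, where it was called (edgeR adjusted p = 0.0334). Ldha, the muscle-type L-lactate dehydrogenase, averaged 1135 ± 286 CPM in KO and 1536 ± 412 CPM in WT (SD, n = 4 each), at -0.44 ± 0.24 (edgeR adjusted p = 0.3002). It was highest in WT replicate 3, at 2129 CPM against 1233 to 1505 CPM in the other WT libraries. The lowest level was 720 CPM in KO replicate 1, against 1211 to 1374 CPM in the other KO libraries. In the 6-library comparison Ldha differed by -0.34 ± 0.21 (edgeR adjusted p = 0.366). Ldhb, the heart-type form, differed by -0.10 ± 0.21 (edgeR adjusted p = 0.801).

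Over the 7 lists, 52 of 58 genes were tested, and edgeR called 0 of them. With TMM, 41 lay lower and 11 higher in KO, against 6884 lower and 7017 higher over all 13901 genes tested. Scaled by total counts, more genes lay higher than lower in the lists of ketone body, sterol and fatty acid synthesis. In the other lists more still lay lower. With TMM, 9 of the 52 had an unadjusted edgeR p under 0.05, all lower, against 21.5% of all genes at that p and 11.1% lower. DESeq2 called 7 of the genes in these lists, all lower: Bsg, Ffar2, Hadhb, Hsd17b7, Ldhd, Mlycd and Scp2, where it called 8.71% of all genes and 4.71% as lower. In the 6-library comparison 2 of 51 tested were called, Hadhb and Ldhd, both lower, where 3.32% of all genes were called and 1.5% as lower.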

How the data were processed

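RNA was measured by RNA-seq with poly(A) capture and dUTP strand marking, per the labels' protocols, in 4 KO and 4 WT libraries. The values the authors deposited are raw counts per gene. The submitters' processing notes name GRCm39. Aligner, counter, annotation and strand setting were not given in the sources used here. Symbols were matched for 18321 of 18395 IDs, and 206 genes had no read in any library. Exon lengths came from GENCODE M21 and promoters from RefSeq, both on GRCm38.p6, with no coordinates converted.

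Counts were tested with edgeR 4.0.16 in R 4.3.3 (TMM factors, filterByExpr by group, robust quasi-likelihood fit, group as the only term) over 13901 genes with Benjamini-Hochberg adjustment and a threshold of 0.05. The biological coefficient of variation was 0.361, and 0.226 in the 6-library comparison, which left out WT replicate 3 and KO replicate 2. Alternatives were DESeq2 1.42.0, limma 3.58.1 (voom with quality weights), other scalings and filters, the replicate number as a block and leaving out each library. Ratios within a library used a prior count of 0.5 and exact two-sided permutation tests in scipy 1.17.1.

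The genes and lists were chosen with earlier results of these data known. Besides the 5 genes and Fermt2, the text names in each list the gene with the highest mean CPM, up to 4 tested genes with the smallest p, and the 3 genes most like each of the 5, among genes whose log2 CPM averaged 5 or more. BC037032, Acat3 and Acaa1a are named for overlap or similarity. No libraries were duplicates: the most alike, KO replicates 3 and 4, differed by a chi-square of 28.5 per degree of freedom. Oxct2a, Oxct2b, Slc5a8, Slc5a12 and Ffar3 were not analysed here. Some genes that the naming rule selects are not reported here.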

Additional observations from a re-analysis of the deposited data

Results flagged for a closer look

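In each group of 4 libraries, the highest or lowest value was compared with its nearest neighbour as a share of the group's range, for the genes named in the report. Of 62 groups, 5 passed Dixon's 95% critical value for 4 samples, and chance passes about 1 in 20 groups. Of these, 4 were in WT replicate 3, the library with skeletal muscle transcripts, and 1 was in KO replicate 2, the library with interferon response transcripts.

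Aacs stood at 210.3 CPM in KO replicate 2, against 67.2 to 77.5 CPM in the other KO libraries. Bdh1 stood at 7.10 CPM in WT replicate 3, against 0 to 0.533 CPM in the other WT libraries. Slc16a3 stood at 79.0 CPM in WT replicate 3, against 2.03 to 3.24 CPM in the others. Hadhb was low in WT replicate 3, at 1586 CPM against 2273 to 2342 CPM in the others. Acaca was also low there, at 318 CPM against 588 to 643 CPM in the others.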

How the results depend on the processing

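Over all genes, edgeR called 0, against 1113 by DESeq2, 911 by limma-voom with quality weights, 882 with total library size only (858 higher, 24 lower), 461 in the 6-library comparison, 1 with no filter, and 0 to 361 with 1 library left out (361 without KO replicate 2). Of the 5 genes, DESeq2, limma-voom and the 6-library comparison each called 1, Acat1 (-0.68, -0.69 and -0.76), and leaving out 1 library called 0 to 1 (Acat1 from -0.74 to -0.60). Of the other pathway genes, they called 7, 5 and 2, and leaving out 1 library 0 to 1.

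Oxct1 and Slc16a1 kept their direction in all 16 alternatives (-0.47 to -0.13 and -0.76 to -0.30) and were called in 0. Bdh1 turned to 0.40 with limma-voom, 0.27 with the replicate block and 0.26 in the 6-library comparison, and ranged from -2.64 to 1.11 with 1 library left out; it could not be tested at a CPM of at least 1 in 4 libraries. Aacs turned to -0.10 and -0.25 with limma-voom and the 6-library comparison, and ranged from -0.16 to 0.58.

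With total library size only, Fdft1 turned to 0.10, Fasn to 0.09, Me1 to 0.07, Acaca to 0.11, Hcar1 to 0.07 and Ldhb to 0.15. Hcar1 was 0.21 and Ldhb 0.01 with limma-voom. With 1 library left out, the ranges crossed 0 for Bdh2 (-0.25 to 0.73), Fasn (-0.77 to 0.19), Me1 (-0.43 to 0.09), Acaca (-0.51 to 0.16), Hcar1 (-0.52 to 0.10) and Ldhb (-0.21 to 0.02). They also did for the log2 ratios of Oxct1 to Bdh1 (-2.14 to 0.76), Bdh1 to Acat1 (-0.51 to 2.49), Bdh1 to Aacs (-1.48 to 1.63), Bdh1 to Slc16a1 (-0.68 to 2.50), Acat1 to Slc16a1 (-0.38 to 0.06) and Bdh1 to adipocyte markers (-0.92 to 2.09). On log2(CPM + 2), Bdh1 to Aacs was -0.58 and Bdh1 to adipocyte markers -0.05. The cause was not tested.

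Deviations from the group means correlated at -0.051, 0.0439, -0.13 and 0.224 between same-numbered KO and WT libraries. Only KO replicate 4 had its same-numbered WT library as best match. These correlations cannot settle whether the replicate numbers pair the samples. The replicate block called 0 genes. With 1 or both libraries left out, the exact test cannot give less than 0.0571 or 0.1, and with paired sign flips 0.125.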
